A study of Mus musculus with 2 samples.

Results

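The replication-dependent histone genes encode the linker histone H1 and the core histones H2A, H2B, H3 and H4 that package newly made DNA. The set was taken by name from the gene table of the mouse assembly GRCm38.p6, as protein-coding genes called H2ac, H2bc, H3c or H4c with a number, and H1f1 to H1f6. It held 63 of 21774 protein-coding genes: 6 H1, 17 H2A, 16 H2B, 12 H3 and 12 H4 genes. H2AZ peaks lay within 1 kb of an end of 22 of the 63, and the 22 genes rested on 13 peaks out of 21592 listed.

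The peaks came from chromatin immunoprecipitation with sequencing (ChIP-seq), which sequences the DNA bound by a protein after pulling that protein down with an antibody. The series held 1 library made with an antibody to the histone variant H2AZ and 1 input library of DNA without pull-down, both from brain neural progenitors of C57BL/6 mice at embryonic day 13, with no allele or treatment named. With 1 library per group no value has a replicate check and no test was made; shares are set beside the share of all protein-coding genes. Read numbers and expression are not in the list, so depth is unknown and the labelled cell type could not be checked against its markers.

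H2AZ is a variant of H2A that takes its place in part of the nucleosomes, often in those flanking the start sites of genes. The replication-dependent histone genes are short and without introns in their usual form, stand in clusters, and are transcribed mainly in S phase, when a dividing progenitor copies its DNA. Their messenger RNAs end in a stem-loop rather than a poly(A) tail, which the protein SLBP binds. H1f6, H2ac1 and H2bc1 are known as histone genes of the testis.

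All 63 genes lay in 3 clusters, formed of genes less than 300 kb apart. On chromosome 13 the proximal cluster, with the lower coordinates, held 22 genes over 330.0 kb (chr13:21714711-22044658, 1 kb of flank included) and the distal cluster held 31 over 406.0 kb (chr13:23530044-23935913). The chromosome 3 cluster held 10 genes over 52.3 kb (chr3:96218885-96271192). Neighbours stood a median of 2289 bp apart in the proximal cluster, 2146 bp in the distal one and 651 bp on chromosome 3. The median gene length was 492 bp, and 58 of the 63 genes were at most 1 kb long.

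The promoters of 7 members show the sequence behind the contrasts described below. They come from the RefSeq promoter table of GRCm38.p6, which holds 250 bases before and 50 after a start site for 58 of the 63 genes; H3c7, H2bc4, H3c1, H2bc21 and H4c14 are not in it. H1f5 (chr13:21780576-21780875, minus strand) and H2ac21 (chr3:96219635-96219934, plus strand) are shown for the highest end peak scores on each chromosome. H3c3 (chr13:23745472-23745771, minus strand) and H2bc3 (chr13:23746484-23746783, plus strand) point away from each other and have 1 peak between their start sites. H2ac11 (chr13:22042900-22043199, minus strand) and H2ac18 (chr3:96245247-96245546, plus strand) have no listed peak, and H2ac19 (chr3:96240325-96240624, minus strand) is shown as a near copy of H2ac18. Capitals mark the 4 motifs named in the next paragraph, on either strand.
H1f5: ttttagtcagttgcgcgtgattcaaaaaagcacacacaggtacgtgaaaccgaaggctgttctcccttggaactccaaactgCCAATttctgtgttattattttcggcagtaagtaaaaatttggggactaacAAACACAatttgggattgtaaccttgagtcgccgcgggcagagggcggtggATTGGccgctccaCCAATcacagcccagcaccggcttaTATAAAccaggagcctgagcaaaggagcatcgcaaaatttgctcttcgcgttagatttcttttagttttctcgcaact
H2ac21: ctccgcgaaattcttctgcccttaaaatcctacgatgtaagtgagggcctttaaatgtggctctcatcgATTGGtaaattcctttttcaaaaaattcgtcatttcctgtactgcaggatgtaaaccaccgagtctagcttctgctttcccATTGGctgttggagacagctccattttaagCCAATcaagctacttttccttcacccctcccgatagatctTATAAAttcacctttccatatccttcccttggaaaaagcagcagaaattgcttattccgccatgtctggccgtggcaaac
H3c3: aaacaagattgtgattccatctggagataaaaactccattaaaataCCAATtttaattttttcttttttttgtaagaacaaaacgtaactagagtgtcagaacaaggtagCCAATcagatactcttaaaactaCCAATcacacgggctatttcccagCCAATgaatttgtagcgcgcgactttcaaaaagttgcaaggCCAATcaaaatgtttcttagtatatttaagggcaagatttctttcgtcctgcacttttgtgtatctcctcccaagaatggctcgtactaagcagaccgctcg
H2bc3: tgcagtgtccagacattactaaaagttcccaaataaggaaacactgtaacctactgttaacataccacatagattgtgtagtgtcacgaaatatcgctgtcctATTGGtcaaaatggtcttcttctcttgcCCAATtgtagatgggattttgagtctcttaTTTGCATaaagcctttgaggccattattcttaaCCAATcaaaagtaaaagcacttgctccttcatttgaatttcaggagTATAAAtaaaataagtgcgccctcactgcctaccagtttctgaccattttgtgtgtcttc
H2ac11: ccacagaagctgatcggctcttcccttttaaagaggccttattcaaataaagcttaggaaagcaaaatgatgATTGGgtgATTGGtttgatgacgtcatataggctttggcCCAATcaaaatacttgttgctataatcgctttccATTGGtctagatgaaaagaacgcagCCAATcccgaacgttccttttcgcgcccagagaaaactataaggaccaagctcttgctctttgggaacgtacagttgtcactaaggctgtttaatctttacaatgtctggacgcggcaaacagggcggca
H2ac18: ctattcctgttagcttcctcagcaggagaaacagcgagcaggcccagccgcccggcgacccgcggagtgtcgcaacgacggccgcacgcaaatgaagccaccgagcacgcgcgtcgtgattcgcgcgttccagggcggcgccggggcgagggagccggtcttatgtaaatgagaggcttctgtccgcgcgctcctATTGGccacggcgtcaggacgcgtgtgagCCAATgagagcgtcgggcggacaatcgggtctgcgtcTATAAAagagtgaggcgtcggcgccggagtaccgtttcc
H2ac19: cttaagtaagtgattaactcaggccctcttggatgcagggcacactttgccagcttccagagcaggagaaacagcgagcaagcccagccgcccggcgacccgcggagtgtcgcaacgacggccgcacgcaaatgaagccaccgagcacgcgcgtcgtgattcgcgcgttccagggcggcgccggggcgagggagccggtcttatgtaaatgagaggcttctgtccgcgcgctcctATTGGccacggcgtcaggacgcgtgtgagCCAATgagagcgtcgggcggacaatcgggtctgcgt

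TATAAA is the core of the TATA box, CCAAT is bound by the factor NF-Y, ATGCAAA is 7 letters of the octamer known from H2B promoters, and AAACACA is the H1 box of H1 promoters; the H1 box was added to the search after values were seen. Both strands were searched, and matches of different motifs may overlap. TATAAA was found in 34 of the 58 histone promoters (58.6%), against 13.3% of the promoters of 17492 protein-coding genes. CCAAT was found in 50 (86.2%, against 39.0%): in every H1, H2A, H2B and H3 promoter of the table and in 3 of 11 H4 promoters. ATGCAAA was found in 13 (22.4%, against 4.16%), of which 6 belonged to H2A and 6 to H2B genes. AAACACA was found in 9 (15.5%, against 6.13%). It stood in 5 of 6 H1 promoters, with H1f1 the exception, in 2 H2A promoters (H2ac4, H2ac1) and in 2 H2B promoters (H2bc14, H2bc1). A match says only that these letters stand in the window. H2A and H2B genes that point away from each other stand so close that their windows overlap. A match in the shared part counts for both genes, so the 58 promoters are not separate stretches of DNA. Both genes of the pairs H2ac12 and H2bc12, H2ac8 and H2bc8, and H2ac1 and H2bc1 had 1 ATGCAAA match each. The counts were not corrected for this.

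By the 22 of 63 genes with a peak at an end, 34.9% of the set was marked (95% exact interval 23.3 to 48.0%, counting error only, over genes that share peaks), against 55.4% of all protein-coding genes. A peak overlapped the gene itself in 20 of the 63 (31.7%), against 60.3%. When at least 50% of the gene had to be covered the order turned round, to 17 of the 63 (27.0%) against 2.48% of all protein-coding genes, most of which are longer than a peak. Over all protein-coding genes of the chromosomes that carry the clusters, the share was 53.8% on chromosome 13 and 59.3% on chromosome 3. Of the 58 members at most 1 kb long, 20 had an end peak (34.5%). Among 1505 other protein-coding genes of that length 42 did (2.79%), and among the 536 of these that are not olfactory or vomeronasal receptor genes the same 42 did (7.84%). A peak overlapped the gene itself in 18 of the 58 short members (31.0%), against 36 of the 1505 other short genes (2.39%). The histone share thus lay below that of genes of all lengths and above that of other short genes.

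Linker histone genes had one in 5 of 6 cases (83.3%, exact interval 35.9 to 99.6%), and H1f6 was the one without. H2B genes had one in 7 of 16 cases (43.8%), H3 genes in 4 of 12 (33.3%), H4 genes in 3 of 12 (25.0%) and H2A genes in 3 of 17 (17.6%, exact interval 3.8 to 43.4%). Over the core histones together it was 17 of 57 (29.8%). The intervals of all types overlapped, and no test between types was made.

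**Figure D1:**
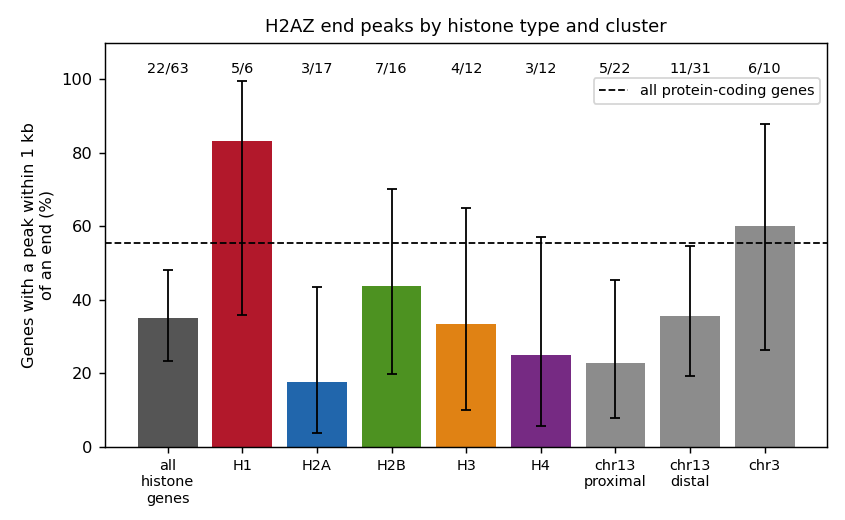
Share of histone genes with an H2AZ peak within 1 kb of an end (%), by histone type and by cluster, with the number of genes above each bar; error bars are 95% exact intervals for counting error and the dashed line is the 55.4% of all protein-coding genes. H1 stands highest at 83.3% and H2A lowest of the types at 17.6%.

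By cluster, 6 of 10 genes had an end peak on chromosome 3 (60.0%), 11 of 31 in the distal cluster (35.5%) and 5 of 22 in the proximal cluster (22.7%). The exact intervals were 26.2 to 87.8%, 19.2 to 54.6% and 7.82 to 45.4%, so they overlapped. They treat genes as separate, though the genes with a peak rested on 3, 6 and 4 distinct peaks. Among H2A genes, 2 of 4 on chromosome 3, 1 of 7 in the proximal and 0 of 6 in the distal cluster had a peak. The 2 on chromosome 3 were neighbours on 1 peak.

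**Figure D2:**
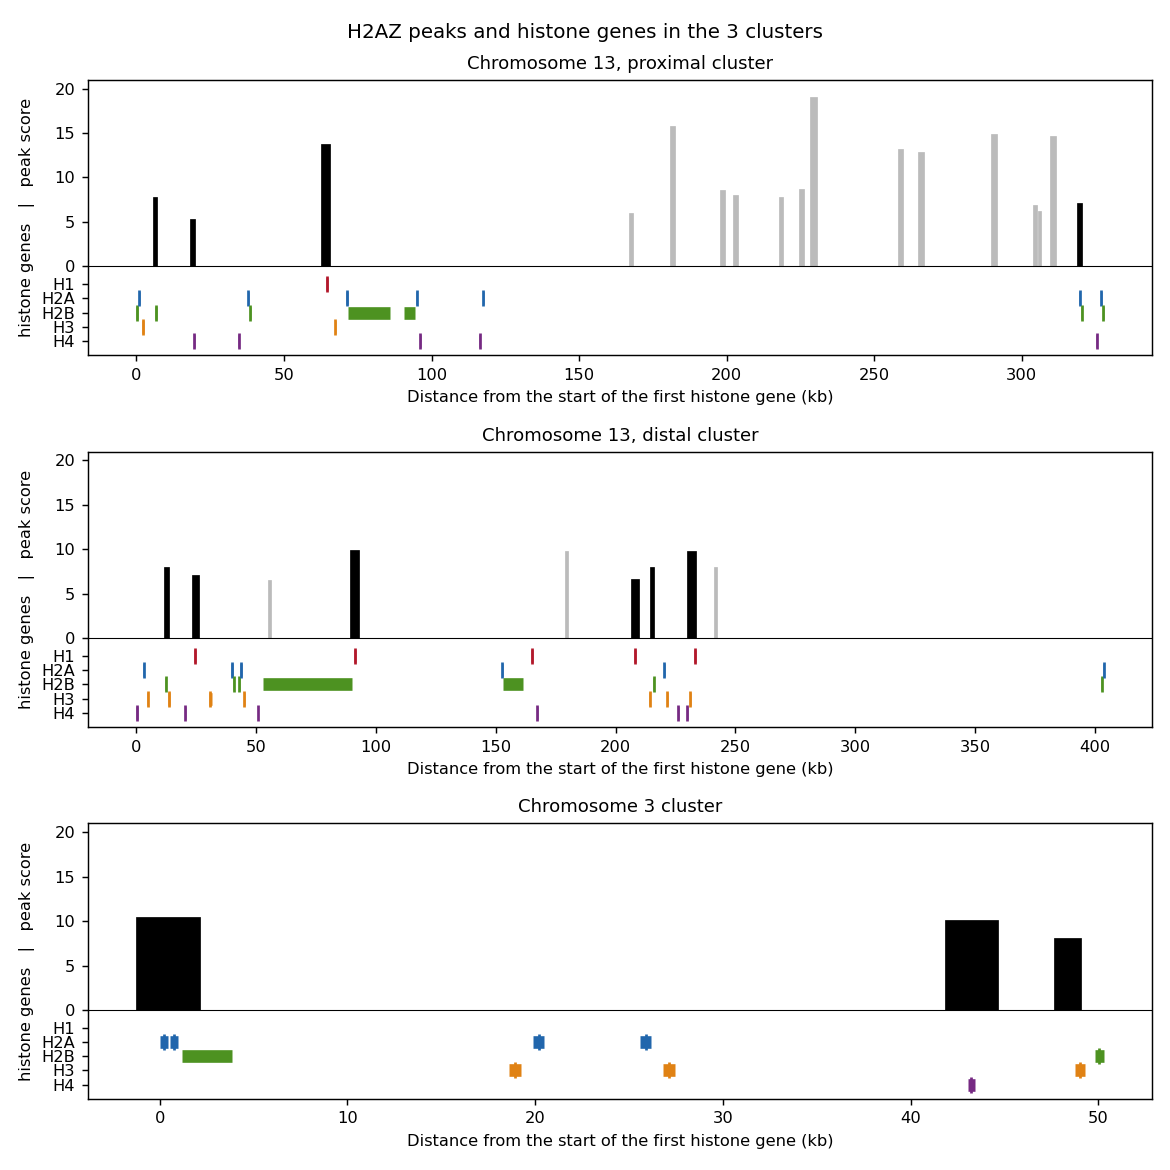
Position of the peaks (bars, height is the peak score) and of the histone genes (coloured marks below, 1 row per type) in the 3 clusters, in kb from the start of the first histone gene. Black bars lie within 1 kb of a histone gene end and grey bars do not; the grey bars of the proximal cluster fill the stretch between its outer groups of genes and reach a score of 19.09, above every black bar.

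Among the linker histone genes, whose products bind the DNA between nucleosomes, H1f5 had the highest score of the set, 13.72 (chr13:21778294-21781267). It was the only member peak above the median of the whole list, 11.93, and 42.6% of listed peaks scored at least as high. H1f4 had a score of 9.94 (chr13:23620098-23623790), H1f1 9.84 (chr13:23760809-23764584), H1f3 7.16 (chr13:23554106-23557154) and H1f2 6.62 (chr13:23737596-23740610). All of these 5 genes lay whole inside their peak. H1f6, the testis gene, lay between listed peaks that end at 23623790 and begin at 23709868.

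The peaks over the H1 genes were wide for their score. Their widths were 2974 bp at H1f5, 3693 bp at H1f4, 3776 bp at H1f1, 3049 bp at H1f3 and 3015 bp at H1f2. Only 5.39% of all listed peaks were 2974 bp or wider, and of the 12048 listed peaks with scores between 5.37 and 13.72, the range of the member peaks, 412 (3.42%) were. The other 8 member peaks had a median width of 1547 bp (1345 to 3397 bp), against 1642 bp for those 12048 peaks and 1922 bp for the whole list. At H1f1 and H1f4 the peak also covered neighbouring histone genes, while the peaks at H1f2, H1f3 and H1f5 reached no other gene end.

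**Figure D3:**
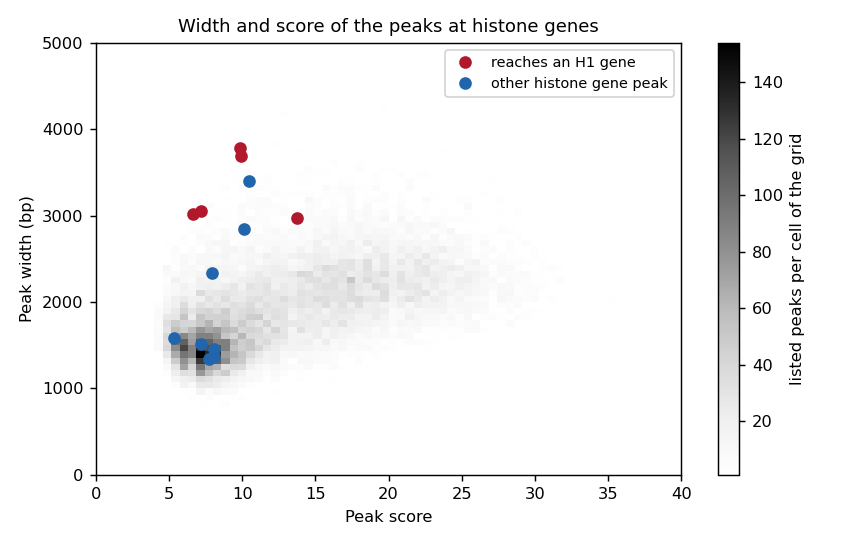
Width (bp) against score of every listed peak (grey grid, darker where more peaks fall; 22 peaks wider than 5000 bp are outside the axis) and of the 13 peaks at histone genes. The 5 peaks that reach an H1 gene (red) are at least 2974 bp wide at scores of 6.62 to 13.72, and most of the other histone peaks (blue) sit in the dense region of narrow, low-scoring peaks.

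The H2A and H2B genes encode the dimer that H2AZ itself enters in place of H2A. The best-scoring core histone peak covered 3 of them on chromosome 3, H2ac21, H2ac20 and H2bc21, with a score of 10.44 and a width of 3397 bp (chr3:96218652-96222048). H2ac21 and H2ac20 point towards each other with 58 bp between them and lay whole inside the peak, which covered 36.6% of H2bc21. H2ac12 and H2bc12 in the proximal cluster shared a peak of 7.16 (chr13:22034640-22036154). These 3 H2A genes were the only ones of 17 with an end peak.

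Further H2B peaks stood at H2bc14 (7.76, chr13:21721157-21722501), at H2bc9 together with H3c7 (7.95, chr13:23542407-23544736), at H2bc3 together with H3c3 (8.05, chr13:23745590-23746956) and at H2bc18 together with H3c13 (8.05, chr3:96267518-96268976). The H2bc3 and H3c3 peak filled the space between the genes: it ended 69 bp short of the H3c3 start site and ran 222 bp into H2bc3. The H2bc18 peak lay over H3c13 and ended 724 bp before the H2bc18 start site, so for H2bc18 as for H3c3 the peak did not touch the gene.

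H2bc6 had the longest gene model of the set, 37455 bp, with start sites at 2 places. The peak of 9.94 shared with H1f4 covered the outer start site at position 23621094 of chromosome 13. A narrower peak of 6.56 (chr13:23585980-23587388, 1409 bp) lay inside the model, 10 bp upstream of the inner start site at 23585970. It was the only peak in the interior of a member.

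H3 and H4 form the tetramer at the core of the nucleosome. H4c1 and H3c1 shared the wide peak of H1f1 (9.84), which covered 96.9% of H4c1 and the whole of H3c1. H4c14 on chromosome 3 had a peak of its own of 10.14 and 2846 bp (chr3:96261715-96264560), the second widest among the member peaks without an H1 gene. H4c11 had the lowest score of the set, 5.37 (chr13:21733947-21735525), and 2.43% of listed peaks scored lower. The 4 H3 genes with a peak, H3c1, H3c3, H3c7 and H3c13, each shared it with another histone gene.

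Over the 22 genes the median score was 8.05 (5.37 to 13.72), against 17.08 (4.18 to 38.78) over the 12060 protein-coding genes with an end peak. Of the 13 peaks, 12 scored below the median of the list. An end peak at or above that median was present at 1 of the 63 genes (1.59%), against 44.4% of all protein-coding genes.

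**Figure D4:**
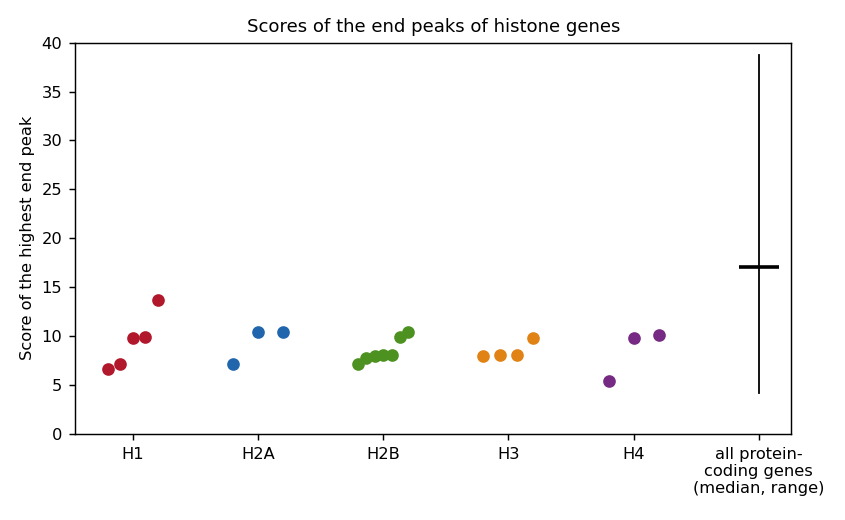
Score of the highest end peak of each of the 22 histone genes with one, by type, beside the median (thick mark) and range (line) over all 12060 protein-coding genes with an end peak. Every histone gene lies below the median of 17.08, and H1f5 is the highest at 13.72; genes on a shared peak show the same value.

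Of the 13 peaks, 6 reached 1 histone gene, 5 reached 2 and 2 reached 3, so 16 of the 22 genes stood on a shared peak. Other gene ends within 1 kb of them were those of the pseudogenes H2ac14 (at the H2bc14 peak) and H2ac5-ps (at the H2bc3 peak), and no protein-coding gene outside the set. There were 23 neighbouring histone gene pairs less than 1 kb apart, and 7 shared a peak, against 974 of 1945 other neighbouring protein-coding pairs at that distance (50.1%). Among them, 11 pairs joined an H2A and an H2B gene, 163 to 280 bp apart, the arrangement in which such genes usually share a promoter region. Of the 11, 9 point away from each other by the listed strands, and for the other 2 a strand is missing. Of the 9, 1 shared a peak, against 440 of 540 other protein-coding pairs that point away from each other (81.5%). Only H2ac12 with H2bc12, and H2ac20 with H2bc21, shared a peak, and the other 9 pairs had no listed peak at either gene.

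With strand known for 58 genes, the start site could be separated from the far end. A peak lay within 1 kb of a start site in 18 of the 58 (31.0%), against 55.3% of 17492 protein-coding genes, and the start site itself was inside a peak in 16 (27.6%), against 54.1%. A peak lay within 1 kb of the far end in 16 of the 58, against 7.29% of genes, which have more room between their ends. In 12 of the 63 genes the whole gene lay inside a peak, as it did for 100 of all 21774 protein-coding genes (0.459%) and for 29 of the 1505 other genes of at most 1 kb (1.93%).

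Relative to the start site, the narrower peaks sat mainly upstream of most of their genes, but not of H2ac12. The peak reached 887 bp upstream and 457 bp downstream at H2bc14, 1144 and 222 bp at H2bc3, 1136 and 322 bp at H3c13, and 1181 and 333 bp at H2bc12. At H4c11 these values were 1087 and 491 bp. H2ac12, which shares the peak of H2bc12 and points the other way, had 511 bp upstream and 1003 bp downstream. At the genes just named other than H2ac12, the peak ended inside or just past the gene. At H3c3 and H2bc18 it ended before the gene, 69 and 724 bp short of the start site. At the H1 genes the peak went on well past the gene: 2331 bp downstream of the start site at H1f5, 2460 bp at H1f4, 2122 bp at H1f3 and 1803 bp at H1f2, for genes of 725 to 794 bp. At H1f1 it ended at 916 bp and lay mostly upstream, over H3c1 and H4c1. The midpoint of the peak was downstream of the start site at 7 of the 18 genes with a start site peak (median -256.5 bp, upstream), against 56.2% of 9143 protein-coding genes (median 35.0 bp downstream).

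**Figure D5:**
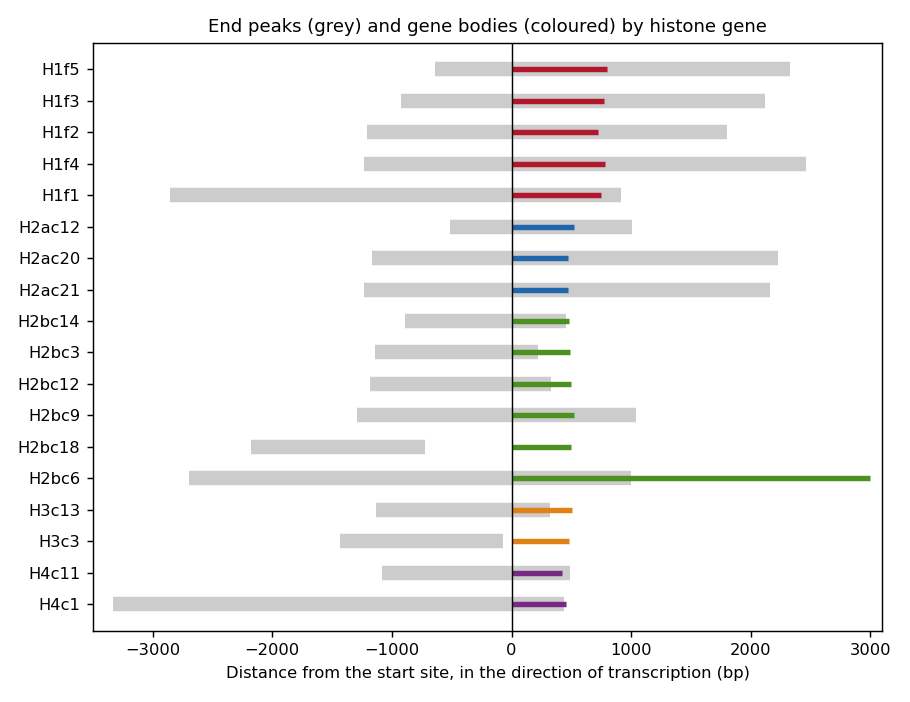
End peak (grey) and gene body (coloured by type, cut at 3000 bp for H2bc6) of the 18 histone genes with an end peak and a known strand, in bp from the start site in the direction of transcription. At H1f2 to H1f5 the peak runs 1803 to 2460 bp past the start site, and at H3c3 and H2bc18 it ends upstream of the gene.

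The peaks of each cluster were then described as a whole. The chromosome 3 cluster had 3 peaks, all at histone genes, covering 14.3% of its length. The proximal cluster had 17 peaks covering 8.77% and the distal cluster 9 covering 5.22%, against 1.61% over all chromosomes. Per 100 kb these are 5.74, 5.15 and 2.22 peaks, against 0.81. The clusters were drawn around close-set genes, while the chromosomes held 21774 protein-coding genes over 2660242 kb. These values do not allow for the number of genes. Counted by gene, the set lay below all protein-coding genes (34.9%, against 55.4%). In the proximal cluster only 4 of the 17 peaks were at histone genes, with a median score of 7.46. The other 13 had a median of 8.65, and 10 of them lay within 1 kb of a tRNA gene, of which the cluster held 31. Of these tRNA genes 15 had an end peak (48.4%), as did 181 of 372 elsewhere (48.7%). The remaining peaks included the highest of the cluster, at the zinc finger gene Zfp184 (19.09), and those at Pom121l2 (12.83) and inside Prss16 (14.91). In the distal cluster 6 of the 9 peaks were at histone genes; among the others, 1 was at Hfe, a gene of iron metabolism (9.84), and the interior peak of H2bc6 was another.

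A gene without a listed peak may still have had one in a longer list, since the peak numbers run to 32646 and 66.1% of them are listed. The numbers ascend with position on every chromosome, so, if each number was given to 1 peak, a missing number between 2 neighbouring peaks places an unlisted peak between them. For 18 of the 41 genes without an end peak (43.9%) the listed peaks on both sides carried consecutive numbers, leaving no unlisted peak between; this share was close to the 41.8% of all 8126 protein-coding genes without a peak. The 18 stood in 4 intervals. They were H3c15, H2ac19, H2ac18 and H3c14 on chromosome 3, the 8 genes from H3c11 to H2ac24 and the group H4c9, H2ac11 and H2bc11 in the proximal cluster, and H2ac4, H3c2 and H4c2 in the distal cluster. The other 23 genes stood in 7 intervals with 9 unlisted peaks in all. Among them, the interval of H1f6, H2ac6, H2bc4 and H4c3 had 2. That of the 7 genes from H3c6 to H4c4 had 1, and that of the testis pair H2bc1 and H2ac1 had 1. An unlisted peak need not lie near a histone gene. The interval of the testis pair ran from 23773328 to 24279381, past the end of the cluster at 23935913.

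Some histone promoters are near copies of each other, which bears on whether short reads can be placed there. Each promoter was cut into its 265 words of 36 letters, and a word was counted as repeated if it stood at another place in the promoter table on either strand. No read length is known from the sources at hand. Of the 58 promoters, 45 had no repeated word, 4 had up to 21.9% and 9 had 69.4 to 100.0%. The 9 were H2bc23, H2ac23, H4c17, H4c18 and H2ac24 in the proximal cluster and H3c15, H2ac19, H2ac18 and H3c14 on chromosome 3. H2ac18 and H2ac19, printed above, share a run of 219 identical letters, and H4c17 and H4c18 one of 285. None of the 9 had a listed peak, and all stood in intervals with no unlisted peak. Without them the share with an end peak was 22 of 54 (40.7%); the part of repeated sequence in the absence of peaks was not tested. The other 9 genes without an unlisted peak, H3c11, H2ac22, H2bc22, H4c9, H2ac11, H2bc11, H2ac4, H3c2 and H4c2, had no repeated word except H4c9 with 1.13%.

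The GC content had a median of 44.8% in the 18 histone promoters with a start site peak and 45.5% in the 40 without, against 61.3 and 48.3% in all protein-coding genes with and without one. The observed to expected ratio of CpG had a median of 0.805 in histone promoters with a peak and 0.74 in those without, against 0.761 and 0.214 in all protein-coding genes. Histone promoters without a peak therefore had a median ratio near that of promoters with one, but this held for the ratio only. Their median number of CpG was 11.5, which lay below that of all protein-coding genes with a peak and above that of those without. The median number in histone promoters with a peak lay between the same values. The ratios within each histone group ran from 0.281 to 1.08 with a peak and from 0.253 to 1.31 without, so the groups overlapped over nearly their whole range.

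The genes that serve the histone genes were described for comparison. Of 17 genes of histone gene transcription and histone messenger RNA processing, 15 had an end peak (88.2%, median score 17.66), against 55.4% of all protein-coding genes. The highest were Lsm11 (31.32) of the U7 particle that processes histone messenger RNA, Cpsf3 (27.14), which encodes the nuclease that cuts it, and Hinfp (24.16), an activator of H4 genes; Coil and Eri1 had none. Npat, the coactivator of histone genes in S phase, had a peak of 18.7 shared with Atm, and Slbp one of 10.6 shared with Tmem129. All 9 genes of histone supply had one (median 20.75), led by Hat1 (29.83), which acetylates new H4, Mms22l (29.23) and Chaf1b (27.38), a subunit of the chromatin assembly factor CAF-1.

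Of 12 histone genes outside the set, most of them variants also made outside S phase, 10 had an end peak (83.3%, median 14.07, 8.95 to 22.6). Cenpa, the centromeric H3, scored 22.6, the linker histone H1f10 21.48 and Macroh2a2 19.99, and Macroh2a1 and H3f3b had none. By their end peak, 5 of these 10 genes scored above every gene of the set. Besides those just named these were H2aj (17) and H2az1 (14.72, on a peak shared with Dnajb14). The H2az1 peak of 14.72 did not overlap the gene. The highest peak that did scored 12.83, below that of H1f5. The other 5, H3f3a (13.42), H2az2 (10.74), H4f16 (10.3), H1f0 (9.34) and H2ax (8.95), lay within the range of the set. At H3f3a too the end peak did not overlap the gene. The germline linker histones H1f7 and H1f8 had no end peak, and H1f9 was not found in the table.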

How the data were processed

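Peaks were available as 1 list for the H2AZ ChIP library; its input library has no values of its own. A line holds the position of a peak, its name and its score; starts were deposited counted from 0 and are printed counted from 1. The score is a value the authors' caller gave, of unnamed kind, and was used only to rank and describe peaks. The names carry the caller MACS, per the deposited file, with settings and control not given in the sources used here. The submitters' processing notes name CASAVA 1.4, Bowtie2 2, FastQC and mm9. With the genes of GRCm38.p6 the share of peaks at a protein-coding gene end was 51.6%, and 8.26 to 12.2% after shifts of 10000 or 1000000 bp, so positions were read as GRCm38 and not converted.

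Left out were 46 peaks numbered after the last Y chromosome peak, leaving 21546, and 348 genes on other sequences. A peak was counted at an end when at least 1 bp of it lay in the 1 kb to either side, and a gene took its highest-scoring such peak. Start sites came from the RefSeq promoter table; for motifs and base composition the first promoter listed for a gene was used. Percentages were set beside those of all protein-coding genes without a test, since 1 library gives no replicate error; intervals are 95% exact (Clopper-Pearson). The members and lists were chosen with earlier results of these data known. Genes were named by a rule that takes every member with an end peak, and of the other lists the 3 highest and those without; Npat, Slbp, Prss16 and the remaining histone genes outside the set were added after their values were seen. Alternatives changed the window, the overlap, the score minimum, merging, the gene end, the gap between clusters and the members. Overlap calls were tested on simulated data. Python 3.11.15, numpy 2.4.6, pandas 2.3.3, scipy 1.17.1 and matplotlib 3.10.9 were used.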

Additional observations from a re-analysis of the deposited data

How the results depend on the processing

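Of 63 genes, 22 had an end peak in 1 kb windows (34.9%, against 55.4% of all protein-coding genes). Windows of 500 bp gave 21 (33.3%, against 54.0%) and windows of 2 kb gave 23 (36.5%, against 57.3%). Windows of 5 kb gave 32 (50.8%, against 60.8% of all protein-coding genes), with 10 genes gained. Other counts were 20 by the peak midpoint (31.7%, against 51.1%) and 22 with merged peaks (34.9%, against 55.4%). At the 5' end alone it was 18 of 58 (31.0%, against 55.3%). Without the testis genes it was 22 of 60 (36.7%, against 55.4%). Without the 9 genes of repeated promoter sequence, a choice made after seeing the data, it was 22 of 54 (40.7%, against 55.4%). With peaks at or above the median score 1 gene was left by its ends (1.59%, against 44.4%) and 1 by its body (1.59%, against 47.4%). In each case it was H1f5. The clusters then held 7 peaks in place of 29, and the score minimum itself removes the rest. With a gap of 100 kb there were 5 clusters, which leave out the tRNA stretch and hold 15 peaks, and a gap of 1 Mb changed nothing. The median score was 8.05 under all 5 alternatives tried. An overlap of 50% of the gene gave 17 genes (27.0%, against 2.48% of all, which are longer), so the members' share was then above that of other genes. No paired analysis was possible because each group has 1 library. Depth is unknown, and whether reads could be placed uniquely at near-identical histone genes was described only through their promoters.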
